A study of Oncorhynchus mykiss with 6 samples.

Results

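The miRNAs miR-722 to miR-740, with miR-731 left out, carry numbers that were first given to zebrafish sequences. Members were all rows of the deposited liver table whose name holds "miR" followed by one of these 18 numbers, with every letter, arm, length variant and fish prefix. The rule found 21 of the table's 1427 rows, which carry 10 of the 18 numbers and 18 different mature names. By prefix, 11 rows bear the name of an Atlantic salmon miRNA (ssa), 8 of a zebrafish miRNA (dre), 1 of a common carp miRNA (ccr) and 1 of a channel catfish miRNA (ipu). Another 14 rows with these numbers are written with "mir" in lower case and were not members.

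The fasted group held 3 small RNA libraries, replicates 3, 4 and 5, from livers of trout without food for 4 days. The control group held 3 libraries, replicates 3, 4 and 6. All were rainbow trout (Oncorhynchus mykiss, strain given as Walbaum) of wild-type genotype and juvenile age, and the question was whether a fast changes hepatic miRNAs. The labels do not state whether a library is 1 fish or a pool. The p-values therefore speak only of the spread among these libraries, and part of that may be technical.

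A miRNA is cut from a hairpin precursor whose 5p and 3p arms pair with each other, and usually one arm is kept and the other degraded. Bases 2 to 8 from the 5′ end, the seed, guide the miRNA to its target transcripts, so a shift of the 5′ end alters which transcripts can pair. Of the members, miR-722 has a known role in zebrafish, where it lowers the GTPase rac2 and dampens the migration of neutrophils. For the other numbers no role is given here.

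The 5 members that passed the filter on low counts are shown first, since the tests between fasted and control liver were made on them. Each is written 5′ to 3′ as in the table, with T for U and the seed in capitals.
dre-miR-722_L-2: tTTTGCAGaaacgtttcagatt
ssa-miR-722-5p_L-1R+1: tTTGAAACgttttagccaaaa
ssa-miR-725-3p: tTCAGTCAttgtttctggtagt
dre-miR-724_L-1: tAAAGGGAatttgcgactgtt
ssa-miR-737-5p_L-1R+1_1ss2TG: gTTTTTTAggtttagactttt
The suffixes are read here by the usual convention for such names, which the table does not itself define. In it L and R give bases lost or gained at the 5′ (L) and 3′ (R) end against the database entry, and ss marks a substitution. By their names 4 of these 5 started 1 or 2 bases inside the entry, which under that reading places their seeds further along than those of the zebrafish or salmon sequences. A 5′ change of either kind, bases lost or gained, was named in 8 of the 21 members, and in 165 of the 716 other rows named miR or let. Among tested rows it was 4 of 5 members against 36 of 258 others.

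The seed shift of miR-722 can be read from a second, rare length variant, shown because it overlaps the abundant one.
dre-miR-722_L+4R-2: gTGGTTTTttgcagaaacgtttcaga
Both share a run of 20 bases, and the rare form starts 6 bases earlier. Counted from the start that the names imply for the zebrafish entry, bases 2 to 8 would read TTTTTGC, while those of the abundant trout form read TTTGCAG. Of the 2 rows with the unlabelled name miR-722, the abundant form held nearly all counts. Its share averaged 99.979% ± 0.021 in fasted and 99.998% ± 0.0031 in control liver (SD, n = 3 each). The long form had 2, 0 and 2 counts in fasted replicates 3, 4 and 5, against 1, 0 and 0 in control replicates 3, 4 and 6.

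The rows named miR-722 and miR-722-5p could pair with each other along most of their length. A computed duplex joined them by 18 base pairs with a free energy of -16.2 kcal per mol. The other numbers with both arms in the table (miR-723, miR-724, miR-725, miR-727, miR-734 and miR-737) gave duplexes of 14 to 18 base pairs and -20.9 to -13.0 kcal per mol. Unrelated rows were not paired for comparison, so the duplexes alone cannot show that paired rows are arms of the same hairpin. No coordinates of these miRNA genes are given in the sources used here, so whether they lie within exons, introns or between genes is not described.

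The 21 members had 20 different seeds, so they share a range of numbers and not a seed. The shared one was TCAGTCA, common to the 2 rows of miR-725-3p, of which the dre-named row of 23 bases contains the salmon-named row of 22 bases whole. A predicted small RNA, PC-3p-85412_3, also had this seed. Its likeness went beyond the seed, with a shared run of 13 bases with the salmon-named row and 14 with the dre-named row. Outside the group the seed of ssa-miR-737-3p_L+1_1ss7AC was that of ssa-miR-216b-5p, of a family known from the pancreas, and that of ssa-miR-723-3p was that of dre-miR-489_L-2R+1. The first of these pairs is printed to show that they agree in the seed and differ beyond it.
ssa-miR-737-3p_L+1_1ss7AC: aAATCTCAacctaaagaaaata
ssa-miR-216b-5p: tAATCTCAgctggcaactgtga
The member of this pair had 8 counts in fasted and 6 in control liver, against 140 and 200 for miR-216b-5p. By its name that member has 1 more base in front than the database entry and a substitution within the seed. The match is therefore one of this row and may not hold for the entry. The same limit applies to dre-miR-489_L-2R+1, which by its name starts 2 bases inside its entry. It had 3 counts in fasted and 14 in control liver, against 1 and 4 for ssa-miR-723-3p. The 2 rows of miR-730 show the same kind of shift as miR-722: ccr-miR-730_L+1R-1 is ssa-miR-730a-5p_R-1 with 1 more base in front, which gives it the seed TCCTCAT in place of CCTCATT.

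The members were poorer in G and C than the other named rows by the median. Their median GC content was 38.1%, against 45.5% in the 956 other rows with a miRNA name, and 19 of 21 were 20 to 23 bases long, against 575 of 956. A first base of T was found in 9 of 21 and in 386 of 956. Of the 956 other rows 716 were named miR or let. The 956 also include rows written with "mir" in lower case, a class that the member rule left out, so unlike kinds of names are compared. These are descriptions of rows that partly overlap in sequence, and no test was made.

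One miRNA made up almost the whole group. The row dre-miR-722_L-2 held 97.3% of all member counts, and with its 5p partner 99.3%, and it outnumbered the second row 47.8-fold. It had 4783, 10414 and 8862 counts in fasted replicates 3, 4 and 5, against 18536, 8616 and 37196 in control replicates 3, 4 and 6. This put it at rank 20, 16 and 20 of all rows in the fasted libraries and at rank 24, 15 and 14 in the control libraries. Of the table's counts it took 0.648% (95% Wilson interval 0.630 to 0.667%), 0.727% (0.713 to 0.741%) and 0.744% (0.729 to 0.759%) in the fasted libraries. In the control libraries it took 0.441% (0.435 to 0.447%), 0.877% (0.858 to 0.895%) and 0.888% (0.879 to 0.897%). All 3 fasted shares lay inside the span of the control shares, whose lowest library, replicate 3, stood apart from the other two. The intervals cover counting error only. Those of control replicates 4 and 6 overlapped, and that of control replicate 3 lay below both.

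**Figure D1:**
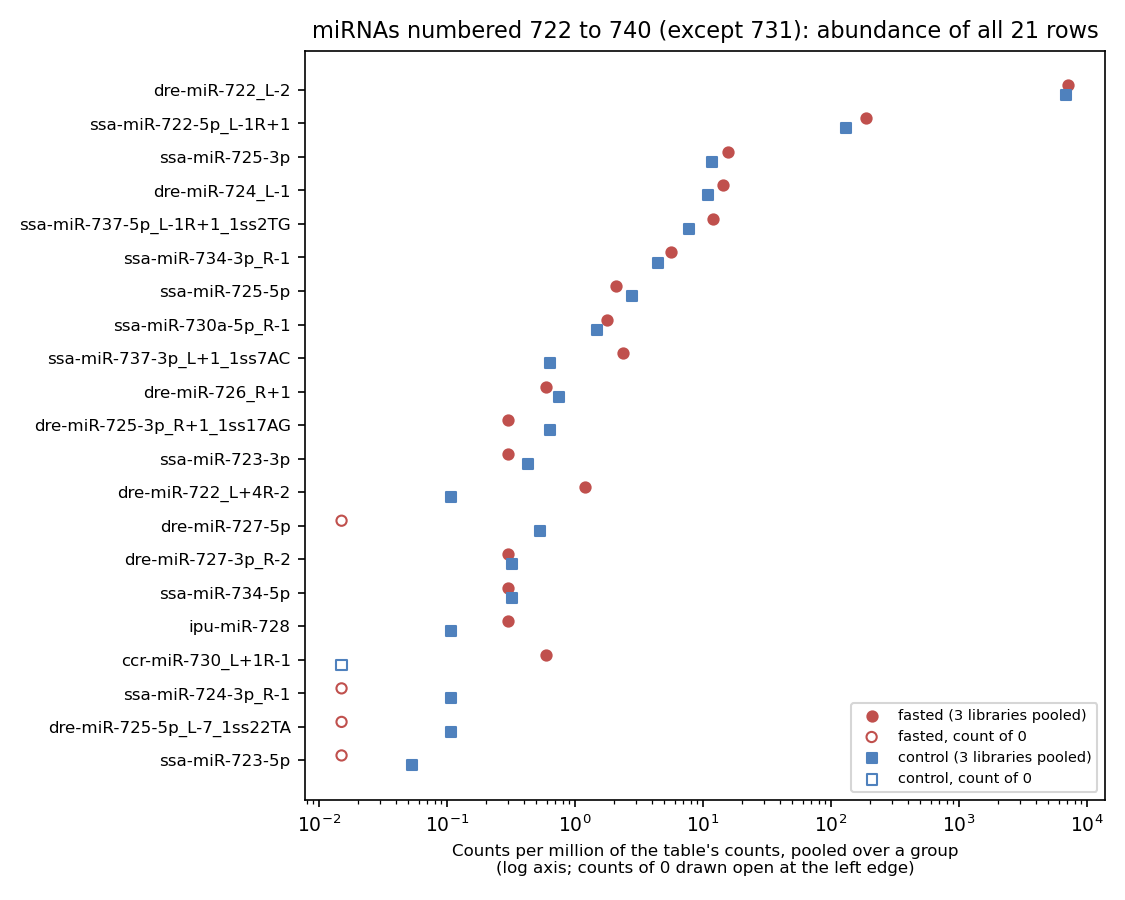
Abundance in unscaled CPM (each row's counts relative to the sum of the library's table; log axis), pooled over the 3 libraries of a group, for all 21 rows named miR-722 to miR-740 (miR-731 left out; circles fasted, squares control, open symbols a count of 0). dre-miR-722_L-2 stands near 7157 CPM in fasted and 6862 CPM in control liver, its 5p row next, and the remaining rows below 20 CPM. Pooling gives deeper libraries more weight. Averaged over libraries, the share of dre-miR-722_L-2 had the other order, at 0.706% ± 0.0509 in fasted and 0.735% ± 0.255 in control liver (SD, n = 3 each).

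The remaining members were scarce. Without dre-miR-722_L-2 the other 20 rows together came to 230 ± 73.1 CPM in fasted and 181 ± 20.9 CPM in control liver (SD, n = 3 each; unscaled CPM). Of the 21 rows 12 had under 10 counts over all libraries, a share of 57.1%, against 507 of the 956 other named rows, or 53.0%. Those 956 include rows written with "mir" in lower case. Counts in every library were found for 7 rows. All members together held 0.729% ± 0.0566 of the table's counts in fasted and 0.753% ± 0.257 in control liver (SD, n = 3 each). Control replicate 3 lay lowest, at 0.457%, and without it the control mean was 0.901%.

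The libraries differed in depth and make-up, which bears on the low rows. The table held 737686 to 1432592 counts per fasted library and 982844 to 4203708 per control library. It covered 15.1 to 47.8% of the mappable reads in the fasted group and 45.0 to 61.0% in the control group. A floor of 3 counts corresponded to 2.09 to 4.07 unscaled CPM in the fasted libraries and to 0.714 to 3.05 unscaled CPM in the control libraries. The hepatocyte markers miR-122, miR-192 and miR-194 took 37.5 to 44.2% of the counts in fasted and 36.6 to 41.8% in control liver. Among markers of other cells, the erythrocyte miR-451 and miR-144 ran from 0.113 to 0.893% in fasted and from 0.172 to 0.358% in control liver. The pancreas markers miR-375, miR-216 and miR-217 ran from 0.0156 to 0.0286% in fasted and from 0.0094 to 0.0118% in control liver. All fasted libraries thus lay above all control libraries in this unscaled share. By library totals the median of all tested rows was also higher in fasted liver (log2 fold change 0.59). In the edgeR fit described below, which allows for composition, all 4 tested pancreas rows still lay above 0. Their median log2 fold change was 0.45, and 0 were called. In 1 of the 4 the fasted libraries lay entirely above the control libraries, as in 8.74% of all tested rows. The unscaled shares of the fasted and control libraries overlapped in the hepatocyte and erythrocyte lists. They also overlapped in the lists of leucocytes, stroma and smooth muscle, endothelium, muscle, epithelium and nervous tissue. In bulk liver fewer cells of a type and less RNA per cell cannot be told apart.

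No member that passed the filter on low counts passed the threshold for a difference between fasted and control livers. edgeR's quasi-likelihood test, on counts scaled by TMM (a factor that allows for composition), tested 309 rows and called 0, or 0%, at an adjusted p under 0.05. Among them were 5 of the 21 members, with 0 called. Before adjustment 26 rows (8.41%) had a p under 0.05, and 0 of the 5 members, whose lowest was 0.209. DESeq2 called 4 of the same rows (1.29%), 0 of them members. In all 5 members the fasted and control libraries overlapped, while of all rows 8.74% had the fasted libraries entirely above and 8.74% entirely below. The median log2 fold change was -0.024 over the 5 members, 4 of them below 0, and 0.0017 over all tested rows, of which 49.8% lay below 0. The members' median moved with single libraries, and with the scaling it moved along with the median of all rows. It was -0.43 without fasted replicate 5, -0.20 without control replicate 6 and, over 6 members, -0.11 without control replicate 4. Against this it was 0.16 without fasted replicate 3 and 0.17 without control replicate 3. With library totals it was 0.58, beside a median of all rows of 0.59. Relative to the median of all rows it was -0.015 with library totals and -0.026 with TMM. The filter on low counts set which members were tested: the lowest total among those was 113 counts and the highest among the others 61 counts.

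**Figure D2:**
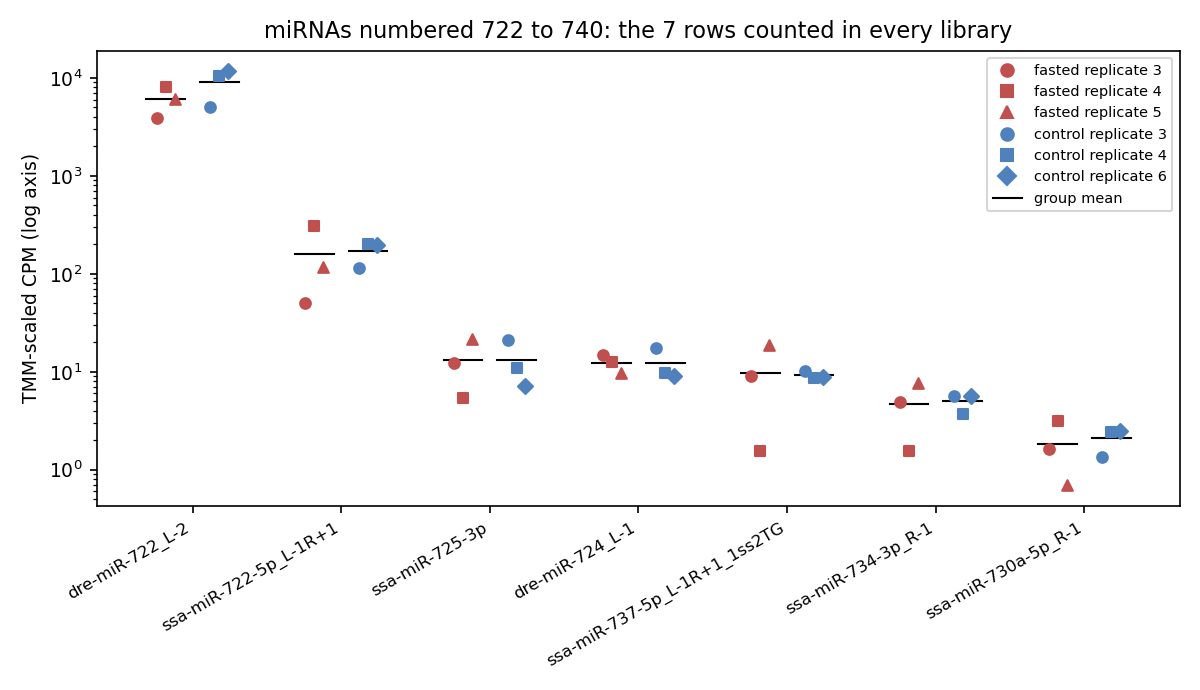
TMM-scaled CPM (log axis) of the 7 rows counted in every library, 1 point per library (red fasted, blue control, shapes by replicate number, bars the group means). In each row the fasted and control points overlap. dre-miR-722_L-2 runs from 3927 CPM in fasted replicate 3 to 11670 CPM in control replicate 6.

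The abundant form of miR-722 was the member with the lowest p. dre-miR-722_L-2 had 3927, 8113 and 6165 CPM in fasted replicates 3, 4 and 5, against 5005, 10555 and 11670 CPM in control replicates 3, 4 and 6. The control libraries 4 and 6 were above every fasted library, and control replicate 3 was below fasted replicates 4 and 5. The means were 6069 ± 2095 CPM in fasted and 9077 ± 3570 CPM in control liver (SD, n = 3 each). The log2 fold change was -0.58, with an SE of 0.43 and a 95% interval of -1.56 to 0.40 (edgeR adjusted p = 0.660). Without control replicate 3 it was -0.86 and without fasted replicate 3 it was -0.29, neither past the threshold. Scaled by library totals alone it was -0.057, while the median of all rows moved to 0.59, so that relative to that median it was -0.65 (-0.58 with TMM). Fasted replicate 3, the lowest library for this row after TMM scaling, also had the smallest table share of mappable reads (15.1%) and the largest TMM factor (1.65). The part of either in the result was not tested.

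Since the role of miR-722 in zebrafish concerns neutrophils, the leucocyte markers miR-142, miR-150, miR-155 and miR-223 are given beside it. By the reading of names used here, the abundant trout form has another seed than the zebrafish entry. Whether the zebrafish role holds for this form was not tested. These markers took 0.278, 0.0712 and 0.267% of the table's counts in fasted replicates 3, 4 and 5, against 0.101, 0.178 and 0.0818% in control replicates 3, 4 and 6. All 13 of their rows had counts. Of the 6 tested 4 lay above 0 and 0 were called. The libraries lowest for these markers, fasted replicate 4 and control replicate 6, held the highest TMM-scaled CPM of dre-miR-722_L-2 in their groups. On the unscaled share used for the markers, fasted replicate 5 held more of this row (0.744%) than fasted replicate 4 (0.727%). The order did not hold throughout, since control replicate 4, highest of the control libraries for the markers, had more of this row than control replicate 3. The part of these markers in the level of miR-722 was not tested.

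The 5p arm of miR-722 was a small share of the miRNA in every library. ssa-miR-722-5p_L-1R+1 had 50.1, 311 and 118 CPM in fasted replicates 3, 4 and 5, against 116, 202 and 197 CPM in control replicates 3, 4 and 6. The fasted libraries held both the lowest and the highest value. The means were 160 ± 135 CPM in fasted and 172 ± 48.7 CPM in control liver (SD, n = 3 each), and the log2 fold change was -0.10 ± 0.62 (SE; edgeR adjusted p = 0.962). Leaving out fasted replicate 4 gave -1.04 and leaving out fasted replicate 3 gave 0.39, so single libraries set its sign.

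The 5p share does not depend on the scaling of libraries. Taken as 5p counts over the counts of both arms, it was 1.26% (95% Wilson interval 0.981 to 1.61%), 3.69% (3.35 to 4.06%) and 1.87% (1.61 to 2.17%) in fasted replicates 3, 4 and 5. In control replicates 3, 4 and 6 it was 2.26% (2.05 to 2.48%), 1.88% (1.62 to 2.18%) and 1.66% (1.54 to 1.80%). Fasted replicate 4 was higher than the other 5 libraries by more than counting error, and fasted replicate 3 was the lowest. The means were 2.27% ± 1.26 in fasted and 1.93% ± 0.301 in control liver (SD, n = 3 each), and without fasted replicate 4 the fasted mean was 1.56%. The groups overlapped, and no test was made.

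**Figure D3:**
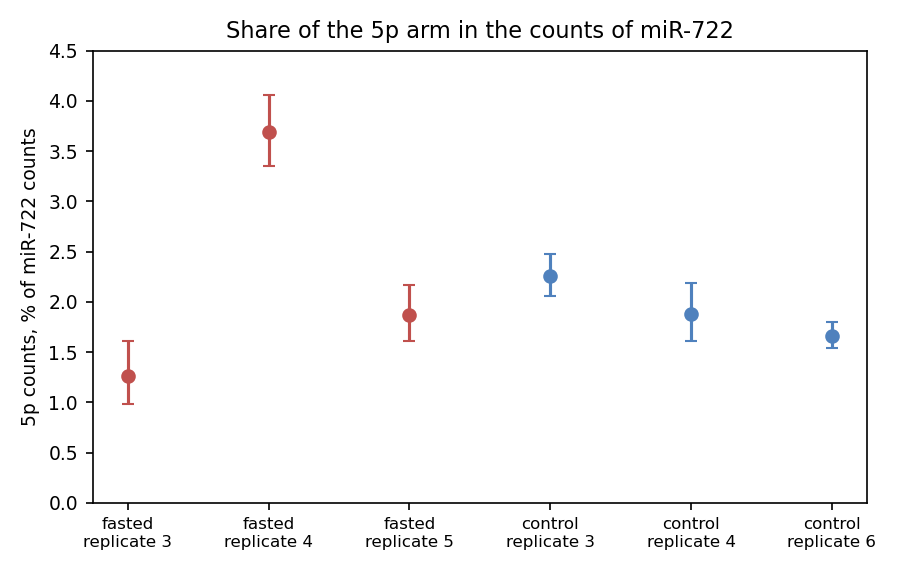
Share of the 5p arm in the counts of miR-722 (percent of both arms) in each library, with 95% Wilson intervals that cover counting error only (red fasted, blue control). Fasted replicate 4 stands at 3.69%, and the other 5 libraries lie between 1.26 and 2.26%.

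The arms of the other miRNAs could be compared in few libraries, those with at least 20 counts over both arms. For miR-725 the 3p arm led: 5p took 6 of 37 counts in fasted replicate 5, against 21 of 105 counts in control replicate 3 and 6 of 30 in control replicate 6. Of the 21 counts 1 came from dre-miR-725-5p_L-7_1ss22TA, a row of only 15 bases. For miR-737 the 5p arm led, with 27 of 31 counts in fasted replicate 5, against 38 of 42 and 28 of 30 counts in control replicates 3 and 6. For miR-734 it was 3p again, 5p taking 1 of 22 counts in control replicate 3 and 2 of 20 in control replicate 6. For miR-724 all 65 counts in control replicate 3 were on the unlabelled row. Its 3p row had a single count, in control replicate 6, against 29 on the unlabelled row there. Which arm was the more abundant thus differed between members.

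The tested miRNAs other than miR-722 lay near 10 CPM and their group means were close. ssa-miR-725-3p had 12.3, 5.45 and 21.6 CPM in fasted replicates 3, 4 and 5, against 21.3, 11.03 and 7.22 CPM in control replicates 3, 4 and 6. Its log2 fold change was -0.024 (SE 0.60, 95% interval -1.41 to 1.36; edgeR adjusted p = 0.987). dre-miR-724_L-1 had 14.8, 12.5 and 9.74 CPM in the fasted libraries, against 17.6, 9.80 and 9.10 CPM in the control libraries. Among the 5 tested rows it had the narrowest relative spread in the fasted group, 12.3 ± 2.52 CPM, against 12.1 ± 4.69 CPM in control liver (SD, n = 3 each), and its log2 fold change was -0.0096 (SE 0.43, 95% interval -0.99 to 0.97; edgeR adjusted p = 0.987). For both the intervals still include changes of about 1 on the log2 scale to either side. Without control replicate 3 the values were 0.57 and 0.39.

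ssa-miR-737-5p_L-1R+1_1ss2TG had the widest relative spread of the 5 tested rows among the fasted libraries. It had 9.03, 1.56 and 18.8 CPM in fasted replicates 3, 4 and 5, against 10.3, 8.58 and 8.79 CPM in control replicates 3, 4 and 6. The control libraries kept within 2 CPM of each other, while fasted replicate 4, with 2 counts, lay below and fasted replicate 5 above all of them. The means were 9.79 ± 8.64 CPM in fasted and 9.21 ± 0.918 CPM in control liver (SD, n = 3 each), and the log2 fold change was 0.090 ± 0.69 (SE; edgeR adjusted p = 0.968). Without fasted replicate 5 it was -0.69. Its partner on the other arm had 1, 3 and 4 counts in the fasted libraries, against 4, 0 and 2 in the control libraries.

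**Figure D4:**
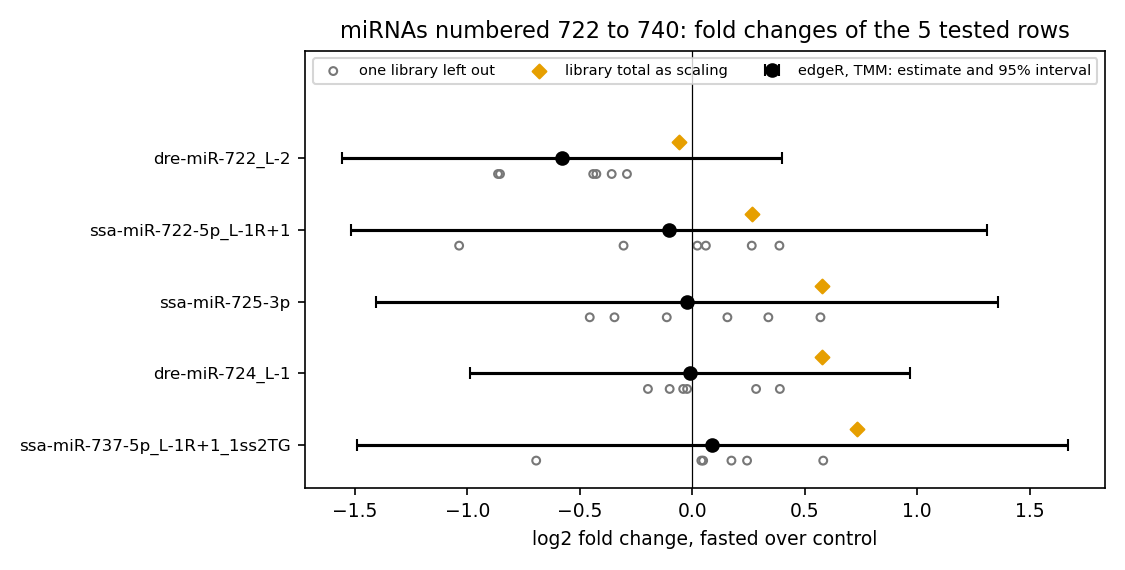
log2 fold changes, fasted over control, of the 5 tested rows: black points with bars are edgeR estimates with TMM and their 95% intervals, diamonds the same with library totals, open circles the fits that leave out 1 library. Every interval includes 0, and with library totals the 4 rows other than dre-miR-722_L-2 lie above 0, at 0.27 to 0.73, beside a median of all rows of 0.59.

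The 16 members below the filter held 53 counts in fasted and 120.5 in control liver, from 3361683 and 9376929 counts in all. The most abundant was ssa-miR-734-3p_R-1, with 6, 2 and 11 counts in fasted replicates 3, 4 and 5, against 21, 3 and 18 in control replicates 3, 4 and 6. ssa-miR-725-5p had 0, 1 and 6 counts in the fasted libraries, against 20, 0 and 6 in the control libraries. ssa-miR-730a-5p_R-1, in all 6 libraries, came to 6 counts in fasted and 14 in control liver, with fractional values in 4 libraries. Apart from 1 more member that passed the filter when control replicate 4 was left out, and was not called, they were fitted as single rows only in an alternative without the filter on low counts. There edgeR called 0 of all 21 members, against 11 of all 1391 rows. Of the members 0 had an unadjusted edgeR p under 0.05, against 90 of all 1391 rows.

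The remaining members had from 0.5 to 9 counts in all. dre-miR-726_R+1 had 2 counts in fasted and 7 in control liver, dre-miR-725-3p_R+1_1ss17AG 1 and 6, ssa-miR-723-3p 1 and 4, dre-miR-727-3p_R-2 1 and 3, and ssa-miR-734-5p 1 and 3. dre-miR-727-5p had 0 in fasted and 5 in control liver, and a count of 0 in the fasted libraries allows up to 0.892 unscaled CPM over the group, above the 0.533 unscaled CPM of the control group. ipu-miR-728 had 1 count in each group, and ccr-miR-730_L+1R-1 had 2 in fasted and 0 in control liver. ssa-miR-724-3p_R-1 and dre-miR-725-5p_L-7_1ss22TA, a row of only 15 bases, each had 0 in fasted and 1 in control liver. ssa-miR-723-5p had 0 in fasted and 0.5 in control liver, and is the row with the least support.

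As a comparison, a list of other numbers taken as first given to fish was used. It held miR-430, miR-458 to miR-463, miR-731 and miR-2184 to miR-2198, as far as present. The origin of each number was not checked, and the list may miss other such numbers in the table, miR-456 for one. Its rows took 0.573, 0.457 and 0.823% of the counts in fasted replicates 3, 4 and 5. In control replicates 3, 4 and 6 they took 0.330, 0.388 and 0.357%. The fasted libraries of this list were all above the control libraries in this unscaled sum, unlike those of the members. Unscaled values were higher in fasted liver for the median of all tested rows too (log2 fold change 0.59 with library totals). In the edgeR fit 6 of the list's 10 tested rows lay above 0. Their median was 0.19 on the log2 scale, and 0 were called. After TMM scaling the fasted libraries lay entirely above the control libraries in 2 of these 10 rows, and entirely below in 1. Over all tested rows it was 8.74% each way. The difference between both groups of numbers was not tested.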

How the data were processed

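Small RNA (15 to 50 nt) from trout liver was sequenced in 6 libraries, 3 fasted and 3 control, grouped by their titles. The authors deposited a read summary of whole-number counts per library, per the file headers, and a table of 1427 small RNA sequences of 15 to 32 nt. Its raw values are expected counts, some fractional; its normalized signal is, as tested on the file, the deposited expected count divided by a library size parameter (0.506 to 2.30), with 0 written as 0.001. The submitters' processing notes list Bowtie 1.1.1. Trimmer, counting program, build and division of shared reads: not given in the sources used here. Single values of related rows are therefore uncertain.

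The main test was the quasi-likelihood test of edgeR 4.0.16 (R 4.3.3) on whole-number rounded counts, with TMM and Benjamini-Hochberg adjustment over all rows tested. The filter filterByExpr (count minimum 10, total minimum 15) kept 309 rows with 99.9% of the counts. CPM values are TMM-scaled; shares use unscaled, unrounded counts. CPM counts whole small RNAs, so no length scaling was made. Floors are 3 counts. Arms were paired with RNAduplex 2.7.2, and Wilson intervals come from scipy 1.17.1. DESeq2 1.42.0, limma 3.58.1 (voom, and log2(signal + 1)), other scalings, no filter, rows summed by mature name, known rows only, a replicate block and leaving out each library were alternatives. The scripts were tested on simulated data. No libraries were duplicates (smallest chi-square per degree of freedom 149.8).

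Members, lists and tests were chosen with earlier results of these data known. Named with values were the leading row of each mature name with a tested row and, for members below the filter, counts per group.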

Additional observations from a re-analysis of the deposited data

How the results depend on the processing

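No member was called under any of the 16 alternative fits, and the lowest adjusted p of a member under them was 0.329. With all rows, 11 were called without the count filter, 4 by DESeq2 and 0 to 1 with 1 library left out (1 without control replicate 3, ssa-miR-10d-5p), against 0 in the edgeR fit with TMM. The log2 fold change of dre-miR-722_L-2 was negative in all 16, from -0.86 to -0.057; the signs of the other 4 turned in 30 of their fits, and the cause was not tested beyond the libraries left out. For ssa-miR-722-5p_L-1R+1 it was 0.015 with upper-quartile scaling, 0.27 with library totals, and -1.04 to 0.39 with 1 library left out. For ssa-miR-725-3p it was 0.033 with RLE size factors, 0.087 with the upper quartile, 0.58 with library totals, 0.036 with DESeq2, 0.10 with rows summed by name, 0.039 with known rows only, and -0.46 to 0.57 with 1 library left out. For dre-miR-724_L-1 these 6 alternatives gave 0.046, 0.11, 0.58, 0.044, 0.14 and 0.063, limma-voom 0.015, limma on the authors' signal 0.11, and leaving out 1 library -0.20 to 0.39. For ssa-miR-737-5p_L-1R+1_1ss2TG it was -0.037 without the filter, -0.41 with limma-voom, -0.36 with limma on the signal, and -0.69 to 0.58 with 1 library left out. The members' share of mappable reads was 0.243% ± 0.133 in fasted and 0.421% ± 0.188 in control liver (SD, n = 3 each). The libraries overlapped, at 0.100 to 0.362% in fasted and 0.206 to 0.552% in control liver. The table itself covered on average 32.6% of the mappable reads in fasted and 54.1% in control liver. With bases 2 to 7 as the seed, 7 members in place of 4 shared it with a row outside the group.

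Numbers 3 and 4 are used in both groups, but nothing says that they mark a shared tank or day; the correlation of same-numbered libraries around their group means was 0.44 and -0.035. With the replicate block, which rests on these pairs alone, 0 rows were called; dre-miR-722_L-2 had -0.36, ssa-miR-737-5p_L-1R+1_1ss2TG -0.87 and ssa-miR-725-3p -0.87 (edgeR adjusted p = 0.329). The members' median was -0.36 with the block (-0.10 over all rows), -0.41 with limma-voom (-0.033) and -0.36 with limma on the signal (-0.021). Over all 21 members without the filter it was -0.62 (-0.22 over all rows). That median is of little weight, since 12 of the 21 rows had under 10 counts over all libraries. Depth limits the low members most. Of the 21 members 5 passed the filter on low counts, beside 309 of all 1427 rows.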
